A study of Mus musculus with 14 samples.

Results

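Stromal cells and luminal epithelial cells sorted from the prostates of C57BL/6 mice aged 24 months were compared across all genes. Of the 14 RNA sequencing libraries of the series, 7 were taken by their titles and age: 3 of stromal cells, 2 of Trop2-positive luminal cells and 2 of Trop2-negative luminal cells. Trop2 is a surface glycoprotein found on epithelial progenitor cells, and the luminal cells had been divided by it. The luminal level was taken as the mean of both luminal sorts with equal weight. The other 7 libraries held the same 3 kinds of sorted cell from C57BL/6 mice aged 3 months, and entered only the test of whether the difference between the compartments depended on age. No genotype other than the strain and no treatment was given for any library, so stromal and luminal libraries differed by the sorted cell type alone as far as the labels go. The labels call the stromal libraries biological triplicates and the luminal libraries biological duplicates. The animals behind each library and the gates of the sort were not given in the sources used here. Therefore p-values measure the spread between these libraries.

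The mouse prostate is a branched gland in which luminal cells line the ducts and secrete the proteins of the prostatic fluid, while a stroma of fibroblasts, smooth muscle, vessels and nerves surrounds them. During development and in the adult the compartments signal to each other: stromal cells release growth factors of the Fgf, Hgf, Igf, Wnt and Bmp families that act on the epithelium, and epithelial cells release hedgehog and Pdgf ligands that act on the stroma. Androgen acts through its receptor in both compartments.

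Each table gave an expected count and a TPM (a level corrected for transcript length and library total) for 24054 genes. Total expected counts ran from 7609869 to 8317416 in the stromal and from 6311944 to 7212231 in the luminal libraries, and 17654 to 17926 genes had a count of at least 1 in a stromal library against 14817 to 16074 in a luminal library. A floor of 3 counts per library, which covers counting error only, corresponded to 0.3607 to 0.3942 CPM in the stromal and 0.416 to 0.4753 CPM in the luminal libraries. Levels below are CPM (counts relative to the TMM-scaled library total) unless TPM is named. Values in a row follow the replicate numbers: 3 stromal libraries, or 4 luminal libraries with the 2 Trop2-negative ones before the 2 Trop2-positive ones. A pair of values joined by "to" is the range over the libraries of a compartment. A log2 difference is stromal minus luminal from the edgeR fit, with its standard error (SE), and a gene was called higher or lower in stromal cells at an edgeR adjusted p under 0.05.

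The 4 markers of the sorts followed their labels (the plot of marker genes by library). Dcn, which codes for the collagen-binding proteoglycan decorin (chr10:97479500-97518163), stood at 3880.3, 4736 and 3563 CPM in the stromal libraries, 15.1 and 17.7 in the Trop2-negative and 10.3 and 14.5 in the Trop2-positive luminal libraries, a log2 difference of 8.15 ± 0.20 (SE; adjusted p = 3.33e-10). Col1a1, a chain of type I collagen (chr11:94936224-94953042), stood at 5562, 2785 and 1213 CPM against 2.32, 3.24, 1.53 and 1.83 CPM (log2 difference 10.52 ± 0.74, adjusted p = 6.65e-05). Acta2, the actin of smooth muscle (chr19:34240336-34255585), stood at 491, 535 and 1062 CPM against 2.57, 1.85, 1.38 and 0.782 CPM (log2 difference 8.80 ± 0.40, adjusted p = 5.32e-07). For these 3 genes every stromal library lay above every luminal library. Krt8, a keratin of simple epithelium (chr15:101996711-102004342), was the reverse: 56, 15.4 and 8.85 CPM in the stromal, 3115 and 3695 in the Trop2-negative and 5890.1 and 5121 CPM in the Trop2-positive libraries (log2 difference -7.33 ± 0.84, adjusted p = 0.000709). The stromal libraries differed among themselves in the balance of these markers. The summed level of 10 fibroblast genes was 21848.0, 16417.5 and 9882.7 CPM in stromal libraries 1, 2 and 3, and that of 12 smooth muscle genes was 3021.5, 3239.5 and 5935.5 CPM, so library 3 was lowest in the first and highest in the second. In the luminal libraries the same sums were 18.3 to 49.8 CPM and 41.3 to 57.8 CPM. All 10 fibroblast and all 12 smooth muscle genes were called higher in stromal cells, where 33% of all genes tested were, and these counts held without each stromal library in turn.

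**Figure D1:**
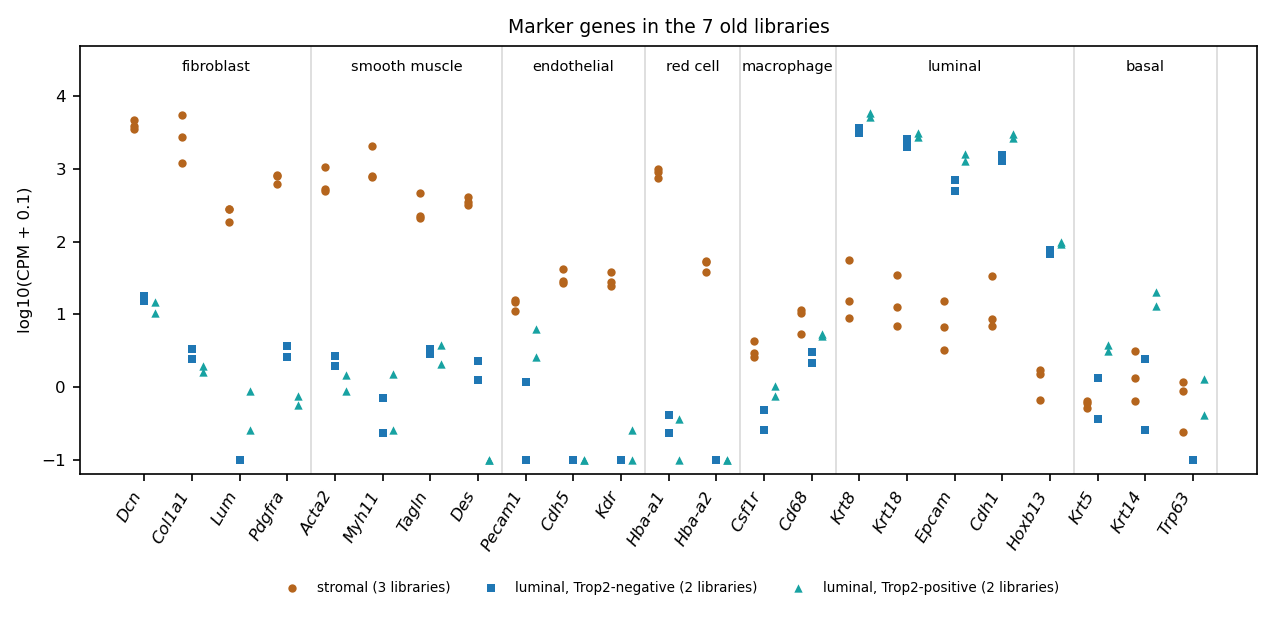
Levels of marker genes in the 7 old libraries, with the gene on the horizontal axis and log10(CPM + 0.1) on the vertical axis; each point is a library, circles stromal, squares Trop2-negative luminal and triangles Trop2-positive luminal. Fibroblast and smooth muscle genes lay above the luminal libraries in all 3 stromal libraries, luminal keratins and adhesion genes lay above the stromal libraries in all 4 luminal libraries, and Krt5 and Trp63 stayed under 5 CPM in all 7. The third basal gene plotted, Krt14, is not described here.

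Markers of other cell types were looked for in both compartments. Of 10 luminal genes, 9 were called lower in stromal cells, where 28.2% of all genes tested were, and 1 was called higher (log2 difference 1.07). The 9 called lower stood in stromal libraries 1, 2 and 3 at a median of 1.66%, 1.2% and 0.653% of their mean luminal level. The gene called higher is not part of these medians. The 10 fibroblast genes stood in the luminal libraries at a median of 0.0639% to 0.368% of their stromal level. Of the 8 endothelial genes 6 passed the filter on low counts, and all 6 were called higher in stromal cells, 5 of them beyond 2-fold. The count called was 5 without each stromal library in turn and against Trop2-positive cells alone. The 8 genes summed to 108.3 to 138.5 CPM in the stromal and 1.03 to 10 CPM in the luminal libraries. Cdh5, the cadherin of vessel walls, stood at 27.2, 29 and 41.9 CPM in the stromal libraries and had no count in any luminal library, so it was at least 77-fold higher against the floor. Of 8 pericyte genes 7 were tested and called higher, with a summed level of 645.3 to 716.8 CPM against 38.9 to 44.3 CPM; Rgs5, a marker of the cells around small vessels, stood at 17, 22.7 and 21.9 CPM against 0.129, 0, 1.53 and 0.652 CPM. Haemoglobin RNA was a feature of the stromal libraries: 5 red blood cell genes summed to 948.6, 1224.2 and 1098.0 CPM there and to 2.77 to 4.69 CPM in the luminal libraries. Macrophage genes were low in both compartments, with sums of 12.9 to 20.1 CPM and 5.02 to 12.8 CPM, and the lymphocyte genes summed to at most 5.15 CPM in any library. Of 7 basal genes 6 passed the filter, 2 of them called lower in stromal cells, and their sums overlapped, at 899.2 to 1178.5 CPM in the stromal and 927.7 to 1357.2 CPM in the luminal libraries. Against Trop2-positive cells alone 5 were called lower and none higher, and against Trop2-negative cells alone 2 were lower and 1 higher. Most of the sum was Dst, which codes for a cytoskeletal linker and is not limited to basal cells, at 1162, 1008 and 892 CPM against 836, 713, 969 and 875 CPM (0.27 ± 0.13, adjusted p = 0.0991). Krt5 stood at 0.415 to 0.532 CPM in stromal and 0.257 to 3.68 CPM in luminal libraries, and Trp63 at 0.138 to 1.06 and 0 to 1.17 CPM. The levels of Krt14, Krt17 and Col17a1 are not reported here, so these low values do not stand for the whole basal list. Krt5 was not called (-1.64 ± 0.70, adjusted p = 0.0604), but was called lower without Trop2-negative library 1 (-2.02, adjusted p = 0.0135), against Trop2-positive cells alone (-2.73, adjusted p = 0.0084), and with library totals and limma. The luminal libraries were uneven in Svs1, a seminal vesicle gene, at 334 and 0.77 CPM in Trop2-negative libraries 1 and 2 and 0 and 169 CPM in Trop2-positive libraries 1 and 2. The comparison was therefore also run without Trop2-negative library 1 and Trop2-positive library 2, which left 1 library in each luminal sort and gave 5389 genes higher and 4109 lower. Markers of other cells were low: glia, adipocyte and neuroendocrine genes summed to at most 17 CPM in any library, mast cell genes other than Kit and Hdc to less than 1 CPM, and the mesothelial factor Wt1 was the exception, at 169, 156 and 131 CPM in the stromal and 0 to 0.13 CPM in the luminal libraries (log2 difference 11.94 ± 0.33), beside 0.266 to 0.415 CPM of Msln in the stromal libraries. The stromal libraries thus held fibroblast, smooth muscle, pericyte, endothelial and red blood cell RNA, and how much of each result below came from which of these cells was not tested. In such bulk samples, fewer cells of a type and less RNA per cell cannot be told apart.

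Of 14792 genes tested, 4875 (33%) were called higher and 4174 (28.2%) lower in stromal cells, and the median log2 difference over all genes tested was 0.06. Each count of list members called below is to be read beside these shares. Tested against a minimum change of 2-fold, 2914 genes (19.7%) were higher and 1548 (10.5%) lower, so the calls beyond 2-fold leaned to the stromal side (65.3% of 4462). All 3 stromal libraries lay above all 4 luminal libraries in 4630 genes (31.3%) and below them in 3921 (26.5%). A call with a fitted difference of 16-fold or more was made for 1335 genes on the stromal and 463 on the luminal side (the plot of all genes tested). A log2 difference of a gene with few or no luminal counts is loosely set: of 192 named genes called at 24 months, 69 moved by more than 1.5-fold when 1 library was left out, 49 of them most without a luminal library. Among genes above the floor in the other compartment, 219 had no count in any luminal library and 51 had none in any stromal library.

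The strongest stromal genes with at least 50 CPM included regulators of development and signalling. Hhip (chr8:79965850-80058060), a membrane protein that binds hedgehog ligands, stood at 168, 209 and 295 CPM in the stromal libraries with no count in any luminal library, which made it at least 527-fold higher. Tcf21 (chr10:22817263-22820143), a transcription factor of mesenchyme, stood at 185, 188 and 198 CPM, also with no luminal count, and was at least 448-fold higher. The same held for the chemokine Ccl7, at 198, 106 and 81.5 CPM and at least 303-fold higher, and for Ptx3, a secreted pattern-recognition protein, at 187, 79.1 and 59.2 CPM and at least 256-fold higher; for both, stromal library 1 was the highest. Gabra3, a subunit of the GABA receptor, stood at 69.8, 88.4 and 62.8 CPM and was at least 173-fold higher. Sfrp2, a secreted Wnt inhibitor, and Cyp1b1, a cytochrome P450 enzyme, reached 270.2, 316 and 267 CPM and 176, 176 and 163 CPM, in that order, with at most 0.46 CPM in a luminal library. The list also held Col5a3, described with the collagens, and the globin genes Hba-a1 and Hbb-b1, which share 50-base stretches with their paralogs, so that their separate values are uncertain. On the luminal side the strongest genes were of a different kind. Foxi1 (chr11:34204341-34208089), a transcription factor of proton-secreting cells, stood at 557 and 472 CPM in the Trop2-negative and 59.2 and 142 CPM in the Trop2-positive libraries against 0.639, 0 and 0.553 CPM in the stromal ones (log2 difference -9.10 ± 0.61, adjusted p = 1.37e-05). Subunits of the vacuolar proton pump showed the same order: Atp6v1g3 stood at 322 and 362 CPM in the Trop2-negative, 38.4 and 95.3 CPM in the Trop2-positive and 0.894, 0.399 and 0.553 CPM in the stromal libraries. Atp6v1b1 stood at 139 and 135 CPM, 18.1 and 47.2 CPM and 0.639, 0.133 and 0.138 CPM in the same libraries. The membrane mucins Muc4, at 100.3 to 411 CPM in the luminal and 0.511 to 0.968 CPM in the stromal libraries, and Muc20, at 25.8 to 130.0 and 0.128 to 0.266 CPM, likewise had their higher luminal values in the Trop2-negative sort. Mmp7, a protease of secretory epithelium, went the other way between the sorts, with 78.4 and 108 CPM in the Trop2-negative and 641 and 390.0 CPM in the Trop2-positive libraries against 1.66, 0.931 and 0.692 CPM in the stromal ones (log2 difference -7.61 ± 0.33). Spint1, an inhibitor of the protease that activates Hgf, stood at 149 to 210.5 CPM in the luminal and 0 to 1.92 CPM in the stromal libraries. The remaining luminal genes of this rank were Cyp4a12a, Glb1l3 and Spinkl, with luminal levels between 31.9 and 126 CPM and stromal levels of at most 0.931 CPM.

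**Figure D2:**
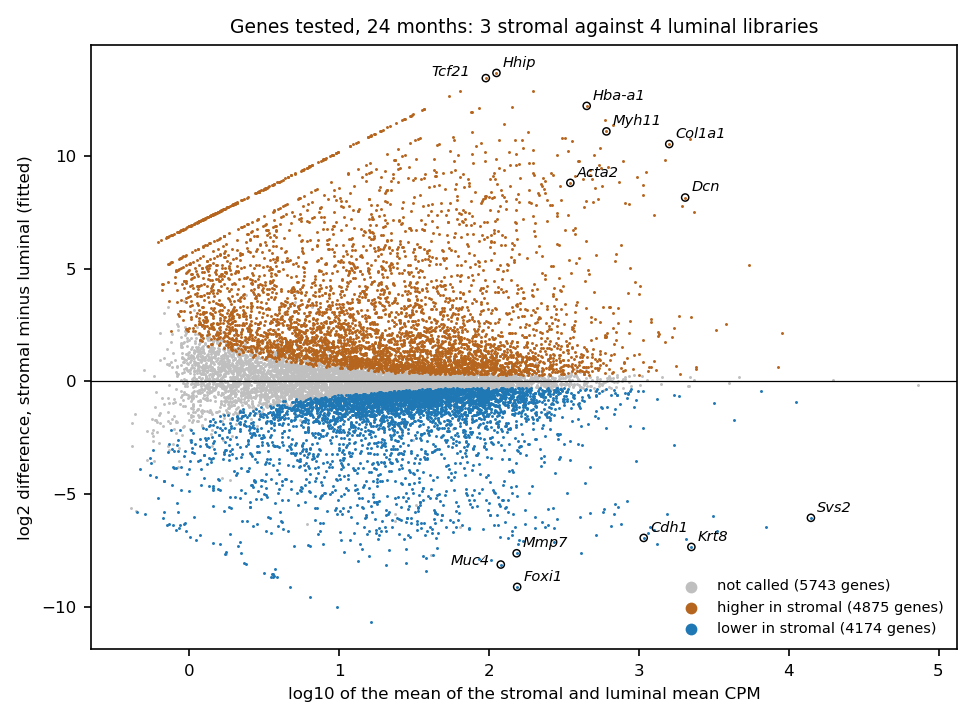
The genes tested at 24 months, with the log10 of the average of the stromal and luminal mean CPM on the horizontal axis and the fitted log2 difference, stromal minus luminal, on the vertical axis; brown points are the 4875 genes called higher, blue the 4174 called lower and grey the 5743 not called. The straight band at the upper left holds genes with no luminal count, whose fitted difference is set by the level alone.

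Matrix genes lay mostly on the stromal side. All 14 collagen genes, all 16 matrix proteoglycans and glycoproteins and 11 of 12 collagen-processing genes were called higher in stromal cells, with median log2 differences of 9.51, 8.46 and 4.74 against 0.06 over all genes tested. Collagen RNA summed to 24205.7, 17025.7 and 9181.5 CPM in stromal libraries 1, 2 and 3, and to 29.0 to 121.1 CPM in the luminal libraries. Most of the spread between stromal libraries came from the fibrillar chains: Col3a1 stood at 7929, 3642 and 1575 CPM and Col1a2 at 4094, 3109 and 1722 CPM, highest in library 1, while the microfibril chain Col6a2 stood at 766, 983 and 624 CPM, highest in library 2. In the luminal libraries Col3a1 lay at 1.53 to 3.99 and Col6a2 at 0.307 to 1.29 CPM, and their log2 differences were 10.74 ± 0.83 and 9.77 ± 0.27. Col5a3, a minor chain of type V collagen, had no luminal count and stood at 104, 66.2 and 49.7 CPM, at least 172-fold higher. Without stromal library 1 the log2 differences of Col1a1 and Col3a1 went from 10.52 and 10.74 to 9.85 and 10. The least one-sided collagen was Col6a3, with 809, 1174 and 519 CPM in the stromal, 83.4 and 45 in the Trop2-negative and 9.36 and 36.4 CPM in the Trop2-positive libraries (log2 difference 4.43 ± 0.57, adjusted p = 0.00112). By length-corrected level, Mgp and Dcn led the proteoglycans and glycoproteins, at stromal means of 4651 and 4569 TPM; Mgp codes for matrix Gla protein, an inhibitor of calcification. Bgn, a small proteoglycan related to Dcn, followed at 1396 TPM, and Sparc, a collagen-binding glycoprotein, at 977 TPM. Luminal means of these 4 genes were between 1.28 and 20.2 TPM. Fn1, which codes for fibronectin, had the smallest difference of the group, 2704, 1709 and 925 CPM against 161, 109, 52.2 and 53.6 CPM (log2 difference 4.40 ± 0.38). Of the enzymes that crosslink collagen, Lox stood at 659, 431 and 333 CPM against 0.308 to 2.57 CPM and Loxl1 at 268, 242 and 149 against 0 to 0.92 CPM. Serpinh1, the chaperone of procollagen, stood at 461, 535 and 302 CPM against 0.307 to 2.32 CPM.

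The basement membrane lies between the compartments, and its genes were divided between them. Of 18 members, 14 were called higher and 2 lower in stromal cells (median log2 difference 3.78). The stromal side held the laminin chains Lama2 and Lama4. Lama2 stood at 936, 1216 and 1127 CPM against 0.46 to 1.29 CPM (log2 difference 10.35 ± 0.20). Lama4 stood at 324, 421 and 245 against 0 to 0.522 CPM (10.72 ± 0.33). The luminal side held Lama5, at 524, 425, 818 and 789 CPM against 62.6, 41.5 and 59.9 CPM (log2 difference -3.50 ± 0.18). Nid2, which links laminin to type IV collagen, stood at 76, 72.3 and 67.4 CPM with no luminal count (at least 169-fold higher). The main type IV collagen chain Col4a1 stood at 756, 843 and 566 against 2.7 to 9.82 CPM. Hspg2, which codes for perlecan, stood at 1407, 1559.8 and 1094 against 20.1 to 50.1 CPM. The integrins, receptors for these proteins, were divided too: of 15, 9 were called higher and 5 lower in stromal cells. Itga5, which pairs with Itgb1 to bind fibronectin, had the largest stromal difference, 1304, 802 and 829 CPM against 0.462 to 8.28 CPM (7.96 ± 0.39), and Itga8 stood at 36.5, 30.2 and 56.6 against 0 to 0.782 CPM (6.27 ± 0.43). The laminin receptor chains Itga6, Itgb4 and Itga3 were luminal. Itga6 stood at 208 to 328 CPM in luminal and 7.54, 2.66 and 3.87 CPM in stromal libraries (-5.79 ± 0.30), and Itgb4 at 90.4 to 246 and 11.8, 5.72 and 8.99 CPM (-4.10 ± 0.22). Itga3 stood at 211 to 320.2 and 16.2, 16.4 and 19.5 CPM (-3.94 ± 0.15). Itgb1, the shared beta chain, was high in both, at 529, 594 and 576 CPM against 224 to 326 CPM (1.09 ± 0.11).

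Of 15 matrix proteases and inhibitors 14 passed the filter on low counts, 11 of them called higher and 3 lower in stromal cells. Mmp2, a gelatinase of mesenchymal cells, stood at 992, 1029.5 and 784 CPM against 0.154 to 2.45 CPM (log2 difference 9.37 ± 0.42). The aggrecan-cleaving Adamts5 stood at 157, 180.1 and 125 against 0 to 0.308 CPM (10.09 ± 0.30). Beside Mmp7, the luminal members were the membrane protease Mmp15, at 130.0 to 274 CPM against 5.37, 2.79 and 2.21 CPM in the stromal libraries, and the inhibitor Timp4, at 22.5 to 43 against 1.66, 0.266 and 0.968 CPM. The inhibitors were split, with Timp4 lower in stromal cells. Timp2 was called higher in stromal cells, at 1439, 1824 and 1368 CPM against 36.7, 41.4, 314 and 233 CPM, and so was Timp3, at 942, 1172 and 1318 against 202 to 292 CPM.

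Contractile genes marked the stromal side, with library 3 apart. Myh11, the myosin of smooth muscle, stood at 785, 810.0 and 2047 CPM against 0.129 to 1.43 CPM (log2 difference 11.08 ± 0.73, adjusted p = 3.65e-05). Tagln stood at 214, 223 and 468 against 1.99 to 3.65 CPM (6.69 ± 0.40). Des, the intermediate filament of muscle, varied less, at 322, 348 and 411 CPM against 0 to 2.16 CPM (11.07 ± 0.27). Myocd, the coactivator that switches on smooth muscle genes, stood at 11.2, 14.4 and 24.5 against 0 to 0.386 CPM (8.07 ± 0.69). For Myh11 and Myocd library 3 held the highest value, yet libraries 1 and 2 alone lay far above every luminal library. Of 12 genes of the muscle actin cytoskeleton, 9 were called higher and 2 lower. Of those lower, Vcl, which codes for vinculin, stood at 284, 306 and 323 CPM against 457 to 683 CPM (-0.85 ± 0.11). Actn1, an actin crosslinker, stood at 238, 270.3 and 277 against 328 to 406 CPM (-0.43 ± 0.12; not called without stromal library 1, at -0.36 and adjusted p = 0.0571). Vim, the filament protein of mesenchymal cells, was the steadiest of the 9, with 2233, 2459 and 1958 CPM against 3 to 4.47 CPM (9.30 ± 0.19, adjusted p = 1.61e-10). Channels and receptors of contractile cells were mixed. The calcium channel Cacna1c stood at 52, 46.4 and 59.1 against 0 to 1.43 CPM (5.95 ± 0.41) and the endothelin receptor Ednra at 32.8, 46.5 and 32 against 0 to 1.07 CPM (8.62 ± 0.64), both higher in stromal cells. Kcnma1, a large-conductance potassium channel often studied in smooth muscle, was lower there, at 44.1, 54.8 and 37.9 CPM against 227, 177, 166 and 163 CPM (-2.0 ± 0.16), and so was the adrenergic receptor Adra1a, at 4.22, 6.12 and 8.44 against 31, 42.5, 9.2 and 19.7 CPM (-1.89 ± 0.32). The potassium channel Kcnk1 was the most luminal of the 10 channels, at 261 to 334 CPM against 4.98, 3.19 and 1.66 CPM (-6.46 ± 0.27).

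Transcription factors listed as mesenchymal or epithelial separated by compartment almost without exception. These lists were drawn up by compartment, with earlier results of these data known, so the split describes them and tests nothing. All 16 mesenchymal factors were called higher in stromal cells (median log2 difference 7.05), and 13 of 14 epithelial factors were called lower (median -5.29). Beside Tcf21, the stromal factors Zeb1 and Zeb2, repressors of epithelial genes, stood at 277, 310.3 and 308 and 220.0, 252 and 242 CPM against 1.08 to 2.87 and 2.19 to 5.08 CPM. Twist1 stood at 51.6, 48.1 and 47.9 against 0 to 0.154 CPM (log2 difference 10.31 ± 0.39). Snai2 was the member with the smallest difference, 46, 44 and 70 CPM against 7.85, 14.9, 30.1 and 27.9 CPM (1.56 ± 0.23, adjusted p = 0.00015). On the luminal side Grhl2, an activator of junction genes, stood at 125, 122, 109 and 97 CPM against 1.79, 0.798 and 0.692 CPM (-6.65 ± 0.25), and the splicing regulator Esrp1, listed with these factors, at 83.5 to 105 against 1.79, 1.99 and 0.83 CPM (-5.92 ± 0.23). Elf3 stood at 216, 248, 427 and 363 CPM against 3.96, 0.931 and 1.94 CPM (-7.03 ± 0.33). Foxa1, a factor that opens chromatin in epithelial cells, stood at 113, 169, 394 and 335 against 6.39, 1.73 and 0.83 CPM (-6.21 ± 0.58). The Hox genes, which encode position along the body axis, also differed in kind. Of 14 listed 12 passed the filter, 8 called higher and 1 lower. The lone luminal member was Hoxb13, at 68.6 to 99.7 CPM against 1.41, 1.6 and 0.553 CPM (-6.11 ± 0.25). The stromal members included Hoxd13, at 113, 109.8 and 124 CPM against 3.86, 0.924, 27.6 and 16.7 CPM (3.96 ± 0.29), and Hoxd11, at 34.1, 25.8 and 36.2 against 0.462 to 4.6 CPM (4.44 ± 0.27). Hoxd10 stood at 19.4, 23.4 and 19.8 against 0.643 to 2.22 CPM (4.11 ± 0.31).

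Cell junction genes were the mirror image of the collagens: all 20 were called lower in stromal cells, with a median log2 difference of -6.22, and 18 of the 20 passed the test against 2-fold. Ocln, a membrane protein of tight junctions, stood at 3.19, 1.86 and 1.24 CPM in the stromal, 206 and 243 in the Trop2-negative and 315 and 291 CPM in the Trop2-positive libraries (log2 difference -6.93 ± 0.24, adjusted p = 1.65e-09). Cldn7, a claudin, stood at 4.22, 1.6 and 2.49 CPM against 214, 239, 348 and 331 CPM (-6.63 ± 0.25). Cdh1, the cadherin of epithelial cells, stood at 33.7, 8.64 and 6.78 against 1297, 1551, 3059 and 2643 CPM (-6.93 ± 0.74). For Cdh1 stromal library 1 held several times the level of the other two, as it did for Krt8 and for the claudin Cldn4 (62.7, 19 and 8.58 CPM). Without that library the log2 differences of Cdh1, Krt8 and Cldn4 went from -6.93, -7.33 and -7.0 to -8.02, -8.47 and -8.12. The smallest difference was that of the scaffold Tjp1, at 177, 194 and 213 CPM against 266, 279, 505 and 458 CPM (-0.89 ± 0.12). Of 11 keratins 10 passed the filter and 8 were called lower. Krt19 stood at 31, 8.64 and 3.32 CPM against 387, 670.5, 2852 and 2116 CPM (-6.31 ± 0.92; adjusted p = 0.0542 without Trop2-negative library 1 and Trop2-positive library 2 together) and Krt7 at 3.58, 2.66 and 0.83 against 159 to 407 CPM (-6.79 ± 0.34). Against Trop2-negative cells alone 6 keratins were called lower, and against Trop2-positive cells alone 10.

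The repressors Zeb1, Zeb2 and Snai2 are known to bind the E-box CACCTG, and smooth muscle genes are known for the CArG box, CC then 6 A or T bases then GG, so both motifs were looked for on both strands of RefSeq promoter windows (GRCm38.p6, 250 bases before to 50 after a gene start). RefSeq windows were matched for 13 of the 20 junction genes (17 windows) and 8 of the 12 smooth muscle genes (9 windows). CACCTG was found in 12 of the 17 junction windows (70.6%), belonging to 9 genes, in 2 of the 9 smooth muscle windows (22.2%) and in 20.2% of all 32851 windows. The CArG box in this exact form was found in none of the 9 smooth muscle windows or the 17 junction windows, and in 1.63% of all windows. Myh11, Tagln, Actg2 and Myocd had no matched window, and a box with another base in its core or outside the window would be missed. At so low a share, 9 windows cannot tell whether smooth muscle genes lack the box. A match is a run of letters, not a bound site, and no binding was measured. The windows of Ocln (chr13:100552449-100552748, minus strand) and Cldn7 (chr11:69965171-69965470, plus strand) are printed because these were the junction genes of smallest p that held the motif, with CACCTG or its reverse complement CAGGTG in capitals, 5′ to 3′ on the gene's strand.

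Ocln: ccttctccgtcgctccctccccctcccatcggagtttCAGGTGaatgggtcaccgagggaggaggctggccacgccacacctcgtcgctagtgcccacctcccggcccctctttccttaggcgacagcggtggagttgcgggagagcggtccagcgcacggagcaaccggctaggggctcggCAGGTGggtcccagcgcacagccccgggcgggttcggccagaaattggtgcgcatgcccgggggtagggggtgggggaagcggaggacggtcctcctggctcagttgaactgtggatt
Cldn7: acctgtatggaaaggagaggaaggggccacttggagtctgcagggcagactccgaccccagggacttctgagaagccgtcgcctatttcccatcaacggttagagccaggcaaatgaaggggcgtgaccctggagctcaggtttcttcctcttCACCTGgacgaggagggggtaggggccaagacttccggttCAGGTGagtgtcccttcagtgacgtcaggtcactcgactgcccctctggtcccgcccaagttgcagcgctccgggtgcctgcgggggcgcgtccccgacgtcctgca

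The matches in the Ocln window began at positions -213 and -68 from the gene start, and those in the Cldn7 window at -97 and -57.

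Luminal cells carried the secretory programme. All 10 prostate secretory genes were called lower in stromal cells (median log2 difference -5.39). The count was 9 without each stromal library in turn, against Trop2-positive cells alone and with a replicate block. Without Trop2-negative library 1 and Trop2-positive library 2 together the median was -5.53. That fit left 1 library in each luminal sort and lost some of the calls, which are not counted here. Tgm4, a transglutaminase of the seminal fluid, stood at 1651, 3616, 2084 and 1748 CPM in the luminal and 31.6, 16.6 and 15.2 CPM in the stromal libraries (-6.73 ± 0.46, adjusted p = 9.28e-06). Pbsn, which codes for probasin, stood at 849.6, 1941, 1021 and 744 against 32.3, 13.7 and 13.6 CPM (-5.80 ± 0.55). Fkbp5, an androgen-induced chaperone, showed the smallest difference of this list, with overlapping libraries: 122, 193 and 122 CPM in the stromal and 189 to 227 CPM in the luminal libraries (-0.52 ± 0.17, adjusted p = 0.0184), and its call was lost without stromal libraries 1 and 3 and Trop2-positive library 2 (adjusted p 0.0519 to 0.0933). Where several libraries are listed in this way, each was left out alone. Of 8 genes named for the seminal vesicle, 4 were called lower; Svs2 alone stood at 47196 and 51474 CPM in the Trop2-negative and 5069 and 7704 CPM in the Trop2-positive libraries, against 219.5, 106 and 484 CPM in the stromal ones. The secretory pathway followed: of 20 genes of the endoplasmic reticulum and of secretion 19 were tested, 16 called lower and 2 higher (median -0.68). Sdf2l1, a partner of the chaperone Hspa5, had the largest of these luminal differences, 33.9 to 53.2 CPM against 4.47, 3.46 and 1.94 CPM (-3.62 ± 0.27), and Hyou1 stood at 299 to 418 against 92, 101 and 71 CPM (-2.05 ± 0.15). The stromal exception was Creb3l1, a factor that drives collagen secretion in bone, at 93.5, 76.8 and 85.5 CPM against 1.84 to 7.24 CPM (4.21 ± 0.33). Oxidative phosphorylation genes leaned the same way by smaller amounts, 17 of 20 called lower and 1 higher (median -0.87), though 4 were past the 2-fold test. The largest was Ndufa1, a subunit of complex I, at 34 to 47.6 CPM in the luminal and 11.1, 11.2 and 9.41 CPM in the stromal libraries (-1.86 ± 0.18). The list of zinc transport and citrate genes, for which prostate epithelium is known, was split, with 7 of 13 tested members lower and 5 higher in stromal cells. The zinc exporter Slc30a2 was luminal, at 67.8, 69.8, 20.1 and 24.6 CPM against 9.33, 11.8 and 7.61 CPM (-2.03 ± 0.19). The importer Slc39a14, at 83.3, 58.2 and 55.5 against 12.1 to 21.7 CPM (2.04 ± 0.18), was stromal. The metallothionein Mt2 stood at 744, 588 and 899.5 against 272, 315, 136 and 156 CPM (1.84 ± 0.15), and was called higher too.

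Hormone receptor genes were expressed in both compartments. The glucocorticoid receptor Nr3c1, at 92.6, 119 and 99.3 CPM against 34.1 to 42.6 CPM (1.45 ± 0.13), was stromal beyond 2-fold. The thyroid hormone receptor Thra stood at 93, 112 and 112 against 36.5 to 47.1 CPM (1.32 ± 0.13), also beyond 2-fold. Esr1, an oestrogen receptor, stood at 46.4, 50.1 and 43 against 25 to 35.3 CPM (0.64 ± 0.15). Vdr, the vitamin D receptor, was luminal, at 32.6, 24.2, 20.1 and 19 CPM against 2.81, 4.92 and 4.01 CPM (-2.59 ± 0.25). Of the 12 receptors 6 were called higher, 3 lower and 3 not, and the list's median of 0.48 stood beside 0.06 over all genes tested. Of 12 genes of steroid metabolism 9 were tested, with 3 called higher and 2 lower. Srd5a2, a 5-alpha-reductase that makes dihydrotestosterone, stood at 55.8, 89.9 and 86 CPM in the stromal and 0 to 1.07 CPM in the luminal libraries (7.39 ± 0.34, adjusted p = 1.05e-08), while its relative Srd5a1 was low in all, at 3.32, 5.05 and 3.46 and 1.54 to 5.22 CPM, and was not called (adjusted p = 0.371). Hsd11b1, which regenerates active glucocorticoid, stood at 61.4, 58.8 and 42.1 CPM with no luminal count (at least 127-fold higher).

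Growth factors of the Fgf and Hgf families lay mainly on the stromal side, 6 of 7 called higher (median log2 difference 5.15). Hgf, which drives epithelial branching, stood at 56.1, 56.9 and 59.5 CPM against 0 to 1.04 CPM (9.02 ± 0.36). Fgf10, the bud-inducing factor, stood at 50.7, 62.9 and 59.8 against 1.53 to 3.13 CPM (4.84 ± 0.23). Fgf7 stood at 42, 52.4 and 32.8 against 0.154 to 2.22 CPM (5.15 ± 0.41). Fgf1 was the exception, at 20.6, 34 and 23.1 CPM against 155, 172, 129 and 134 CPM (-2.50 ± 0.18). Among the receptors Met, which binds Hgf, stood at 131 to 165 CPM in the luminal and 4.85, 2.92 and 2.21 CPM in the stromal libraries (-5.42 ± 0.22), and Fgfr1 was the reverse, at 892, 766 and 729 against 162, 113, 42 and 61.5 CPM (3.24 ± 0.17). Fgfr2, the receptor of Fgf7 and Fgf10, differed by less, at 58.4, 60.8 and 75.2 against 102 to 119 CPM (-0.78 ± 0.13, adjusted p = 0.000363). Igf1 stood at 358, 541 and 240.4 CPM against 0 to 3.73 CPM (7.89 ± 0.68), and all 6 Igf binding proteins were called higher in stromal cells, with a median of 6.90. Igfbp4 stood at 1672, 1561 and 779 against 0.153 to 1.29 CPM (11.36 ± 0.40) and Igfbp2 at 37.6, 50.4 and 91.4 CPM with no luminal count (at least 141-fold higher); the first was lowest and the second highest in stromal library 3. The 3 receptors Igf1r, Igf2r and Insr were called lower by small amounts, with log2 differences of -0.31, -0.54 and -0.67, none past the 2-fold test. Against Trop2-positive cells alone Igf1r (-0.06, adjusted p = 0.757) and Insr (-0.34, adjusted p = 0.0931) were not called. Of 7 Egf family ligands 3 were called lower, 2 higher and 2 not, with a median of -1.12 that became 1.76 against Trop2-negative cells alone. Egf stood at 175 to 307 CPM against 8.69, 3.72 and 3.6 CPM (-5.54 ± 0.33), Hbegf at 197, 261, 879.8 and 617 against 94.9, 69.9 and 84 CPM (-2.32 ± 0.18) and Tgfa at 55.5 to 68.3 against 9.45, 9.31 and 11.5 CPM (-2.58 ± 0.16). Their receptor Egfr was higher in stromal cells, at 241, 288 and 184 CPM against 19.4, 14.6, 77.2 and 62.2 CPM (2.78 ± 0.17), whereas Erbb3, which binds neuregulins, was luminal, at 173 to 250.3 against 3.96, 2.39 and 3.32 CPM (-5.93 ± 0.20). Both Pdgf receptors were stromal, Pdgfra at 626, 816 and 793 CPM against 0.46 to 3.6 CPM (9.12 ± 0.20) and Pdgfrb at 191, 226 and 228 against 0 to 1.42 CPM (8.17 ± 0.52).

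Hedgehog genes were detected at very different levels. All 8 receptors and targets were called higher in stromal cells (median log2 difference 5.09). Gli1, a transcription factor and target of the pathway, stood at 144, 158 and 159 CPM against 0 to 0.616 CPM (11.07 ± 0.38). The receptor Ptch1 stood at 90.1, 127 and 127 against 9.52 to 29.6 CPM (2.71 ± 0.18). Of the ligands, Shh stood at 0 and 0.924 CPM in the Trop2-negative and 8.13 and 6 CPM in the Trop2-positive libraries against 0.383, 0.133 and 0.415 CPM in the stromal ones (-2.45 ± 0.88, adjusted p = 0.0308). Ihh stood at 2.45 and 0.154 CPM in the Trop2-negative, 9.05 and 5.61 CPM in the Trop2-positive and 1.02, 0.532 and 0.692 CPM in the stromal libraries (-2.04 ± 0.71, adjusted p = 0.0268). The libraries of the compartments overlapped for both. Shh lost its call without stromal libraries 1, 2 and 3, Trop2-negative library 2 and Trop2-positive library 1 (adjusted p 0.0615 to 0.709), with a log2 difference of -0.08 without Trop2-negative library 2, and Ihh without stromal libraries 1, 2 and 3, Trop2-negative library 1 and Trop2-positive library 1 (adjusted p 0.0533 to 0.649), with -0.54 without Trop2-negative library 1. The third ligand, Dhh, was called higher in stromal cells at a low level, 2.56, 2.26 and 1.66 CPM against 0, 0.462, 0.614 and 0.391 CPM (2.66 ± 0.75, adjusted p = 0.00909), and was not called against Trop2-positive cells alone (2.08, adjusted p = 0.0691). Wnt ligands were mostly stromal, 8 of 10 higher and 2 lower. Wnt2 stood at 46.6, 81 and 53.4 CPM against 0 to 0.643 CPM (7.56 ± 0.36) and Wnt11 at 60.9, 45.9 and 61.4 against 0.129 to 2.3 CPM (6.17 ± 0.31). Wnt7b was luminal, at 13.4, 20, 71.6 and 56.2 CPM against 0.767, 0.266 and 0 CPM (-6.46 ± 0.45), and Wnt4 leaned that way, at 53.8, 49.1, 80.5 and 69.5 against 36.3, 25.9 and 33.2 CPM (-0.97 ± 0.15). Of 10 Wnt inhibitors and modulators 9 were tested and 8 called higher, among them Wif1 at 236, 406 and 469 against 0.13 to 1.42 CPM (9.69 ± 0.35) and Rspo3, which strengthens Wnt signals, at 68.7, 97.2 and 139.8 against 0 to 1.29 CPM (8.54 ± 0.45). The receptors were split, 9 of 12 higher and 3 lower: Fzd1 stood at 311, 408 and 323 CPM against 4.31 to 13.7 CPM (5.46 ± 0.17) and Fzd6 at 3.07, 3.72 and 2.63 against 39.9 to 53.6 CPM (-3.88 ± 0.19).

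Ligands of the Tgf-beta and Bmp families were stromal in all 10 members tested of 11 (median log2 difference 2.98), and so were all 6 tested of 7 Bmp and activin inhibitors (median 8.21). Gdf10, a Bmp-like ligand, stood at 335, 554 and 282 CPM against 0 to 2.19 CPM (10.24 ± 0.68), Bmp2 at 289, 281 and 350.4 against 1.67, 1.54, 27.9 and 17.5 CPM (5.66 ± 0.19) and Tgfb2 at 98, 100.5 and 101 against 14.4, 22, 34.8 and 26.9 CPM (2.08 ± 0.16). Bmp4 varied between luminal libraries, at 35.3, 7.09, 3.53 and 1.43 CPM, against 119, 127 and 170.4 CPM in the stromal ones (4.26 ± 0.59). Fst, which binds activin, stood at 313, 251 and 296 against 1.67 to 6.91 CPM (6.04 ± 0.20). The luminal member of the receptors was Bmpr1b, at 225, 262, 148 and 180.2 CPM against 9.2, 6.51 and 5.67 CPM (-4.80 ± 0.19), while Tgfbr3, a co-receptor, stood at 451, 579 and 407 against 85.7 to 91.1 CPM (2.44 ± 0.14). In the Notch family Jag1 was stromal, at 146, 151 and 164 against 13.3 to 23.1 CPM (3.01 ± 0.13), and Jag2 luminal, at 2.56, 3.06 and 0.692 against 4.95 to 16.3 CPM (-2.14 ± 0.44). The receptor Notch1 was luminal, at 282 to 349.7 CPM against 130.1, 108 and 138 CPM (-1.33 ± 0.13). Notch3, a pericyte and smooth muscle receptor, was stromal and stood at 93.5, 101 and 108 against 6.95, 13.6, 28.1 and 26.2 CPM (2.60 ± 0.19).

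A list of 20 ligands with a matching receptor was read across both compartments (the plot of ligand and receptor differences). In 8 pairs the ligand was called higher and the receptor lower in stromal cells: Fgf10 and Fgf7 with Fgfr2, Hgf with Met, Igf1 with Igf1r, Nrg1 with Erbb3, Bmp4 with Bmpr1b, Jag1 with Notch1 and Kitl with Kit. By length-corrected level the clearest of these was Hgf with Met, with ligand means of 44.4 TPM in the stromal and 0 and 0.525 TPM in the Trop2-negative and Trop2-positive groups, and receptor means of 1.01, 40.8 and 48.7 TPM. For Kitl, the ligand of the receptor Kit, the means were 34.7, 3.63 and 15.2 TPM, and for Kit 1.76, 63.1 and 18 TPM. Kit is also one of 6 mast cell genes listed; of the others, Cpa3, Mcpt4, Cma1 and Tpsb2 had no count in any luminal library, and Hdc stood at 0.643, 0.77, 0 and 1.04 CPM in the luminal and 2.04, 1.99 and 0.692 CPM in the stromal libraries. The part of mast cells in the level of Kit was not tested. Igf1r was the weakest member of these pairs, with overlapping libraries. It stood at 360.3, 291, 224 and 232 CPM in the luminal and 218, 208 and 232 CPM in the stromal libraries (-0.31 ± 0.12, adjusted p = 0.0368). Its call was lost without stromal libraries 1 and 2, Trop2-negative library 1 and Trop2-positive libraries 1 and 2 (adjusted p 0.0712 to 0.138). Against Trop2-positive cells alone Igf1r stood at -0.06 and was not called (adjusted p = 0.757). Nor was it called with RLE factors, DESeq2, limma or a replicate block. In 2 pairs the ligand was lower and the receptor higher, Shh with Ptch1 and Pdgfb with Pdgfrb; Pdgfb, at 1.92, 1.46 and 1.38 against 1.29 to 5.98 CPM (adjusted p = 0.0398), lost its call without stromal libraries 1, 2 and 3, Trop2-negative library 2 and Trop2-positive libraries 1 and 2 (adjusted p 0.0589 to 0.166). In 6 pairs both partners were higher in stromal cells: Fgf2 with Fgfr1, Wnt5a with Ror2, Tgfb2 with Tgfbr2, Il33 with Il1rl1, Vegfa with Kdr, and Gas6 with Axl. Il1rl1, the receptor of Il33, at 22.2, 5.05 and 4.7 CPM against 0.614 to 3.24 CPM (2.35 ± 0.66, adjusted p = 0.0132), lost its call without stromal library 1, Trop2-negative libraries 1 and 2 and Trop2-positive library 1 (adjusted p 0.0527 to 0.109), and fell to 1.23 in the first of these. The log2 difference of Ror2, 4.39 ± 0.39, became 6.94 without Trop2-negative library 2. Gas6 stood at 598, 813 and 571 CPM against 39.6 to 153 CPM and Axl, its receptor tyrosine kinase, at 793, 921 and 835 against 0.386 to 8.74 CPM. Wnt4 with Fzd6 was the pair with both partners lower. In the remaining 3 a partner was not called: Pdgfa (-0.39 ± 0.30, adjusted p = 0.284) with Pdgfra, Areg (-1.12 ± 0.50, adjusted p = 0.0763) with Egfr, and Cxcl12 with Cxcr4 (0.50 ± 0.68, adjusted p = 0.547). Areg, an Egf-like ligand, differed between the luminal sorts, at 0.772 and 1.23 CPM in the Trop2-negative and 74.4 and 34.8 CPM in the Trop2-positive libraries, with 5.49, 2.79 and 1.8 CPM in the stromal ones. Areg was called higher in stromal cells against Trop2-negative cells alone (1.76, adjusted p = 0.0442) and lower against Trop2-positive cells alone (-4.0, adjusted p = 4.17e-05). Against both sorts it was called lower without stromal library 1 (-1.67, adjusted p = 0.0132), without Trop2-positive library 2 (-1.34, adjusted p = 0.0223), and with library totals, DESeq2 or limma. Pdgfa was called lower without Trop2-negative library 1 (-0.65, adjusted p = 0.0236) and stood at 0.04 without Trop2-negative library 2, and Cxcr4 stood at -0.20 without stromal library 3.

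**Figure D3:**
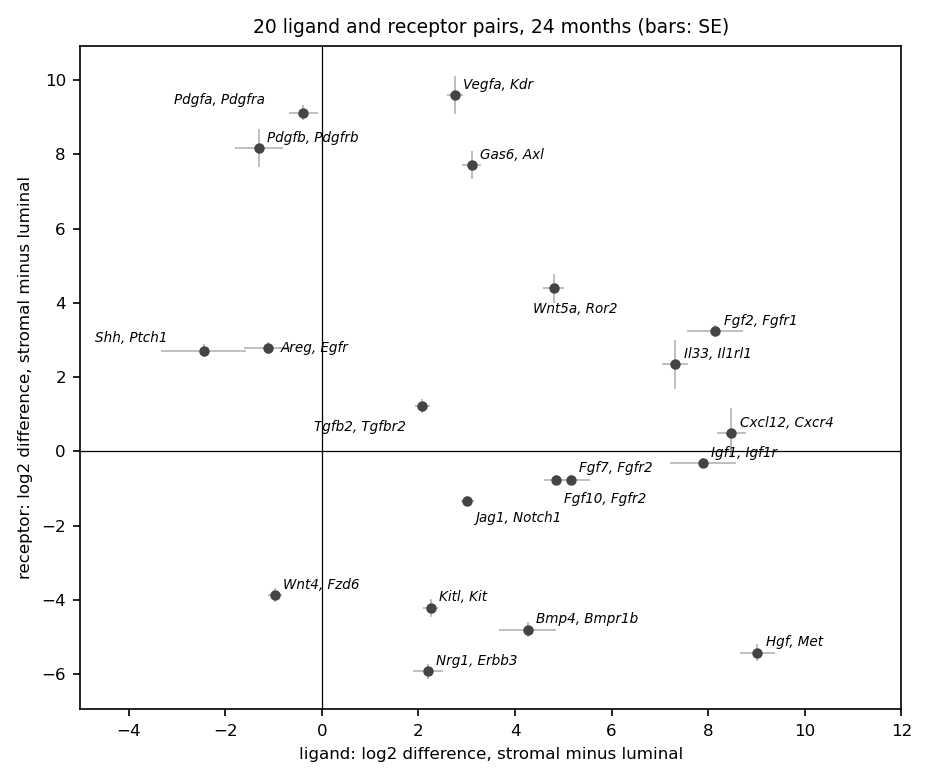
The 20 ligand and receptor pairs, with the fitted log2 difference, stromal minus luminal, of the ligand on the horizontal and of the receptor on the vertical axis; bars are standard errors. The lower right part holds the 8 pairs with the ligand called higher and the receptor called lower in stromal cells. Of these, Hgf and Met lay farthest out, and Igf1r, at -0.31, lay closest to the horizontal line. The upper right part holds the 6 pairs higher in stromal cells for both partners together with Cxcl12 and Cxcr4.

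Immune mediators were stromal in large part. Of 16 chemokines 15 were tested, 11 called higher and 3 lower (median log2 difference 6.0). Cxcl12, which attracts cells that carry Cxcr4, stood at 335, 405 and 359.9 CPM against 0 to 3.53 CPM (8.48 ± 0.30). Cxcl14 stood at 395, 400.1 and 406 against 0 to 1.54 CPM (9.16 ± 0.38). The eosinophil attractant Ccl11 stood at 153, 132 and 126 against 0.153 to 1.16 CPM (7.49 ± 0.23). Cxcl13, which attracts B cells, was spread out, at 95.3, 77.4 and 17.6 CPM against 0 to 0.92 CPM (9.03 ± 1.18), and was not called without Trop2-negative library 1 and Trop2-positive library 2 together (adjusted p = 0.0796). The luminal chemokines were Cxcl16, Cxcl17 and Cxcl15. Cxcl16 stood at 102, 114, 206 and 187 CPM against 43.4, 31.8 and 31 CPM (-2.04 ± 0.15). Cxcl17 stood at 2.45, 8.78, 66 and 62.6 against 1.28, 0.931 and 0 CPM (-4.62 ± 0.66). Cxcl15, known as lungkine, stood at 4.76, 3.85, 49.1 and 36.9 against 7.28, 1.99 and 5.12 CPM (-1.50 ± 0.36, adjusted p = 0.00423); its log2 difference against Trop2-negative cells alone was 0.15 and was not called. Of 12 cytokines 10 were tested and 8 called higher, none lower. Il6 stood at 246, 176 and 148 CPM against 0 to 1.83 CPM (8.22 ± 0.38) and Csf1, the macrophage growth factor, at 1324, 902 and 817 against 15.6 to 26.8 CPM (5.60 ± 0.19). All 11 complement genes tested of 12 were called higher (median 6.24), and they summed to 10378.2, 12728.3 and 5241.2 CPM in stromal libraries 1, 2 and 3 against 93.6 to 310.8 CPM in the luminal ones. C3, the central component, stood at 4771, 5366 and 1414 against 10.7, 8.17, 39.9 and 24.8 CPM (7.78 ± 0.61, adjusted p = 8.17e-05). C4b stood at 879, 969 and 169 against 0.129 to 1.3 CPM (10.22 ± 1.05), with its lowest stromal value in library 3. Serping1, the inhibitor of the first component, stood at 1660.3, 2164 and 1284 against 2.93 to 19.3 CPM (7.87 ± 0.66). Prostaglandin synthesis was divided, with Ptgs2 stromal, at 784, 675 and 564 CPM against 13.3 to 48.2 CPM (4.81 ± 0.35), and Ptgs1 luminal, at 18.7, 17.8 and 10.4 against 47.1 to 64.4 CPM (-1.77 ± 0.21). Ptgis, which makes prostacyclin, stood at 117, 142 and 107 against 0 to 1.03 CPM (8.20 ± 0.43).

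All 18 interferon response genes were called higher in stromal cells (median log2 difference 2.95), 14 of them past the 2-fold test. Their summed level was 2505.9, 2490.6 and 4999.0 CPM in stromal libraries 1, 2 and 3 and 410.8 to 559.9 CPM in the luminal libraries. Irf1, an interferon-induced transcription factor, stood at 619, 652 and 844 CPM against 48 to 90.4 CPM (3.51 ± 0.19). The membrane antiviral gene Ifitm3 stood at 250.1, 269 and 357 against 48.6 to 63.8 CPM (2.40 ± 0.16). The spread was wide for the antiviral genes Ifit1, at 260.1, 230.0 and 1012 CPM against 10.9 to 23.2 CPM (5.13 ± 0.73, adjusted p = 0.00241) and Ifit2, at 124, 134 and 580.1 against 1.42 to 13 CPM (5.89 ± 0.85). Without stromal library 3, 15 of the 18 were called higher, with a median of 2.71, and Ifit1 and Ifit2 stood at 4.11 and 4.78. Without the luminal libraries of high Svs1, Trop2-negative library 1 and Trop2-positive library 2, 12 of the 18 were called higher and Ifit1 and Ifit2 were not (adjusted p = 0.0934 and 0.0979). Library 3 was thus apart from the others in contractile, complement and interferon genes. Summed collagens were graded, highest in library 1 and lowest in library 3. Among the 9055 genes whose stromal mean reached 10 CPM, library 3 lay more than 2-fold above both others in 39 and below both in 52. For library 1 these numbers were 27 and 4, and for library 2 they were 9 and 25. What set the libraries apart was not tested. Immediate early genes, which respond within minutes to stimulation, were also higher in stromal cells: 15 of 20 immediate early and heat shock genes were called higher and 1 lower. Egr1 stood at 3822, 3644 and 4223 CPM against 398, 388, 827 and 659.6 CPM (2.85 ± 0.14). Junb stood at 3369, 3112 and 3366 against 324, 441, 587 and 420.2 CPM (2.90 ± 0.16). Atf3, a stress-induced factor, was the member called lower, at 944, 954 and 1048 against 1528, 1886, 1702 and 1601 CPM (-0.77 ± 0.13).

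**Figure D4:**
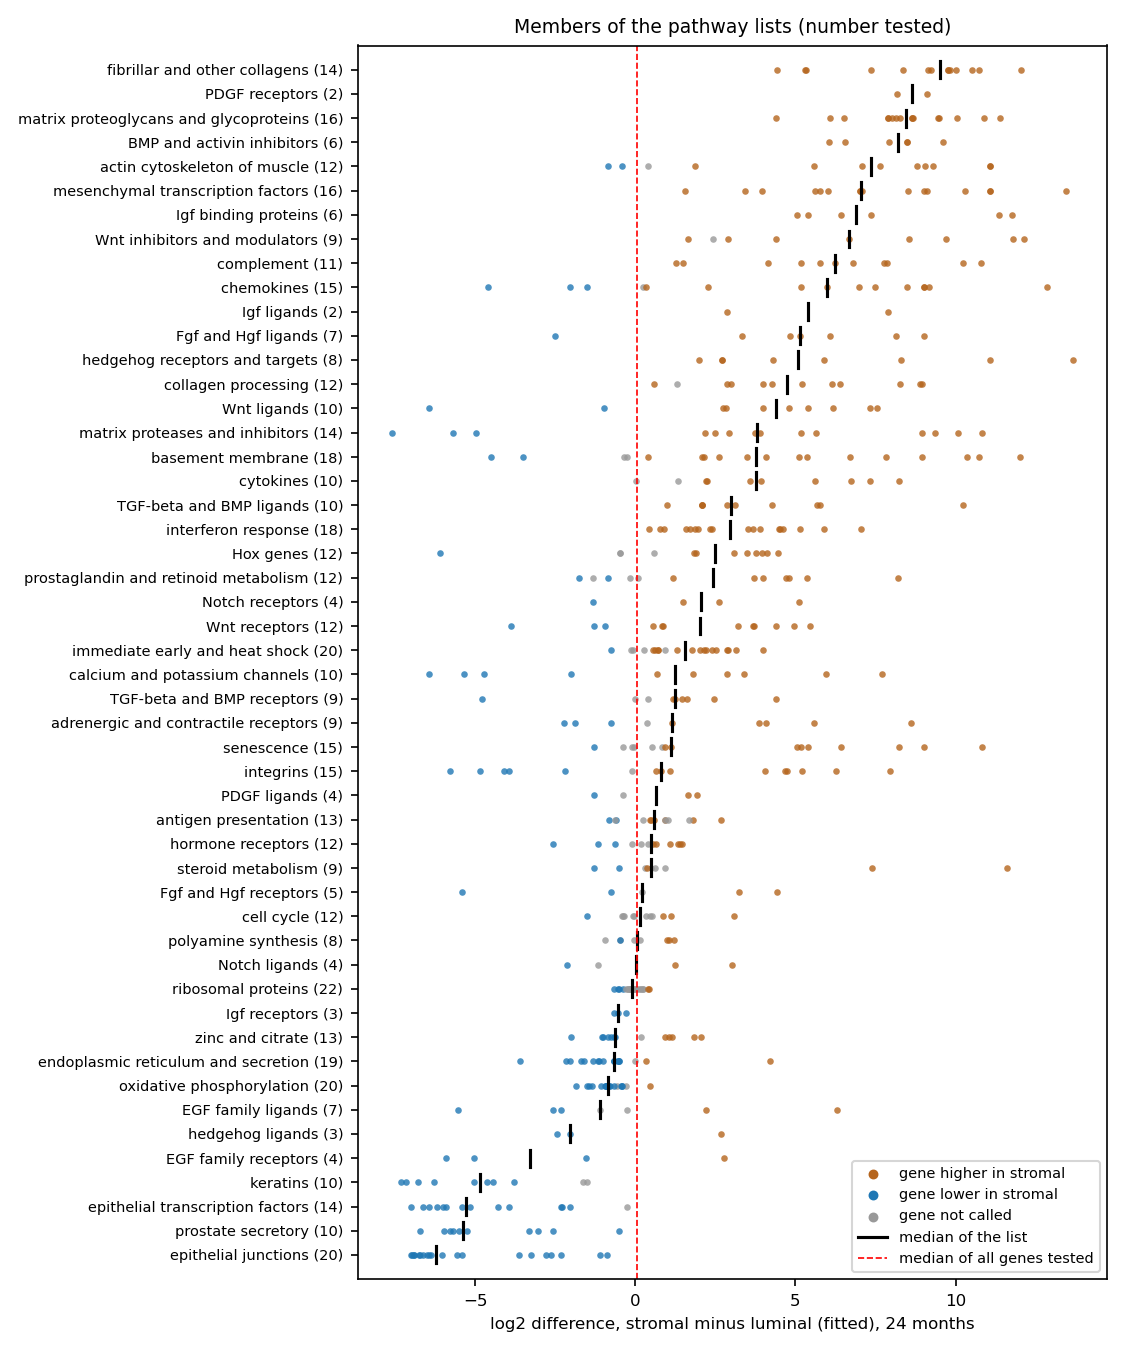
Fitted log2 differences, stromal minus luminal at 24 months, of the tested members of 50 pathway lists, ordered by the list's median (black bar); brown points are genes called higher in stromal cells, blue lower and grey not called, and the dashed line is the median of all genes tested, 0.06. Collagens had the highest median, 9.51, and epithelial junctions the lowest, -6.22.

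Whether these differences were particular to old mice was tested against the same 3 sorts at 3 months, in a fit of all 14 libraries on its own scale (15256 genes). The compartments differed in much the same way at both ages: of 9255 genes called at 24 months 84.7% were also called at 3 months, and of 9288 called at 3 months 84.4% were also called at 24 months, 7819 of these 7841 in the same direction. These shares are to be read beside the 9288 genes called at 3 months, and the 9255 at 24 months, of all 15256 tested. The 2 differences come from separate libraries, so no library is shared between the ages. Both sets of calls came from the same fit, however, with a dispersion per gene common to both ages. A simulation changed the old stromal libraries alone, in genes above a minimum mean count, with a single dispersion and both luminal sorts at the same mean. Genes under that minimum are not covered by it. In those simulated data the test of the difference between the ages recovered 16% of 2-fold and 87% of 4-fold changes, so it could miss many changes near 2-fold. In these libraries it called 160 genes: 70 (0.459%) with a difference more on the stromal side in old mice and 90 (0.59%) with a difference more on the luminal side. That split, 43.8% on the stromal side, moved to 29.6% when library totals replaced TMM scaling and to 11.3% with limma on log2(TPM + 1), so the balance of directions was not stable. The counts also moved with single libraries: the first became 28 without young stromal library 2, 37 without young stromal library 1, 39 without old stromal library 1 or young Trop2-negative library 1, 46 without old stromal library 3, 121 without old Trop2-negative library 2 and 145 without young Trop2-positive library 2. The second became 252 without young Trop2-positive library 2, and 35, 48 and 49 without young stromal libraries 2, 1 and 3, 42 and 43 without old stromal libraries 1 and 3, 51 without old Trop2-negative library 1, 53 without old Trop2-positive library 2 and 58 without young Trop2-negative library 1. Among the list members called were 3 genes of the basement membrane, each higher in stromal cells at both ages and less so in old mice. Hspg2 stood at 1344, 1481 and 1048 CPM in old and 1929, 2113 and 2268 CPM in young stromal libraries, so the groups did not overlap. Trop2-negative libraries held 48.4 and 46.6 CPM in old and 43.6 and 29.5 CPM in young mice, and Trop2-positive libraries 19.5 and 23.7 CPM and 12.5 and 12.6 CPM. The stromal minus luminal log2 difference of Hspg2 was 5.33 in old and 6.61 in young mice, a change of -1.28 ± 0.21 (adjusted p = 0.00978). Col4a5, a chain of type IV collagen, stood at 241, 313 and 292 CPM in old and 504, 508 and 602 CPM in young stromal libraries, with a change of -1.22 ± 0.21 in the log2 difference (adjusted p = 0.0124). Lamc1, the common laminin gamma chain, stood at 776, 996 and 594 CPM in old and 1302, 1729.8 and 1479.6 CPM in young stromal libraries, with a change of -1.06 ± 0.22 (adjusted p = 0.0299). For all 3 the old stromal libraries lay below the young ones. The integrin chain Itgb5 changed by -0.90 ± 0.19 (adjusted p = 0.0261). On the other side, Hoxa11 stood at 24.8, 30.5 and 29.1 CPM in old and 17.9, 16.6 and 23 CPM in young stromal libraries, and at 1.74 and 1.35 CPM in old and 6.78 and 11.9 CPM in young Trop2-negative libraries. Its log2 difference was 3.44 in old and 1.13 in young mice (change 2.30 ± 0.40, adjusted p = 0.0119). Cldn1, a claudin, and Grhl1, an epithelial factor, were luminal at both ages and less so in old mice, with changes of 1.2 ± 0.26 and 0.99 ± 0.19 (adjusted p = 0.032 and 0.0206). The retinoid-binding gene Crabp1 had the largest change of a list member, 3.36 ± 0.66 (adjusted p = 0.0219), with 6.34 and 5.99 CPM in old and 41 and 35.4 CPM in young Trop2-negative libraries. Hspg2, Col4a5 and Hoxa11 kept their calls when any single library was left out. With limma on log2(TPM + 1) Cldn1 (0.73, adjusted p = 0.107) and Grhl1 (0.63, adjusted p = 0.0823) were not called, and Cldn1 was not called with library totals (adjusted p = 0.0595). Grhl1 lost its call without old stromal library 1 and young stromal libraries 1 and 2 (adjusted p 0.056 to 0.0681). Crabp1 lost it without old stromal libraries 2 and 3, young stromal libraries 1 and 2 and young Trop2-negative library 1 (adjusted p 0.0533 to 0.0856). Lamc1 lost it without old stromal libraries 1 and 3, young stromal libraries 2 and 3, old Trop2-negative library 1, young Trop2-negative libraries 1 and 2 and old Trop2-positive library 2 (adjusted p 0.0564 to 0.108). Itgb5 lost it without old stromal libraries 1 and 3, young stromal libraries 2 and 3, old Trop2-negative library 1, young Trop2-negative library 2 and old Trop2-positive library 2 (adjusted p 0.0623 to 0.0994). Cldn1 lost it without old stromal libraries 1, 2 and 3, young stromal libraries 1, 2 and 3, old Trop2-negative library 1, young Trop2-negative library 1 and old Trop2-positive library 1 (adjusted p 0.0526 to 0.0942).

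The 6 largest changes with age in each direction were in genes at or under the floor of 3 counts in at least 1 luminal library (the plot of differences at both ages). Adamtsl3 (chr7:82335399-82614450), a secreted matrix protein, stood at 23.4, 25.5 and 27.2 CPM in old and 27.3, 21.5 and 18 CPM in young stromal libraries, which overlapped, and at 0 to 0.149 CPM in old against 1.09 to 3.62 CPM in young luminal libraries (change 5.80 ± 0.85, adjusted p = 0.00659). S1pr3, a receptor for sphingosine 1-phosphate, and the protein kinase gene Prkd1 had the same form, with luminal levels of at most 0.449 and 0.639 CPM in old and 1.3 to 3.28 and 1.09 to 5.42 CPM in young libraries (changes 5.05 ± 0.80 and 3.68 ± 0.61). Lfng, which modifies Notch receptors, changed by 4.27 ± 0.78, with no count in old Trop2-negative cells. Rmnd1, a mitochondrial gene that shares 20.2% of its 50-base windows with other genes, and the mitotic kinase Nek2 changed by 4.55 ± 0.60 and 4.50 ± 0.95, with counts in young but none in old Trop2-negative libraries. In old Trop2-positive libraries Rmnd1 stood at 9.25 and 8.31 CPM, above the 5.49, 6.18 and 4.11 CPM of the old stromal libraries, and Nek2 at 0.895 and 1.28 CPM against 1.95, 1.89 and 1.72 CPM. In the other direction Antxr1, which codes for a collagen-binding receptor (chr6:87133853-87335809), stood at 95.7 and 90.2 CPM in old and 10.2 and 14.8 CPM in young Trop2-negative libraries and at 248, 298 and 268 against 348, 374 and 359 CPM in the stromal ones, so the ages did not overlap in either sort (change -3.85 ± 0.57, adjusted p = 0.0137). Tsku, a secreted leucine-rich protein, stood at 7.46 and 5.54 CPM in old and 1.69 and 1.64 CPM in young Trop2-negative libraries, and at 0.447 and 0.767 CPM in old Trop2-positive libraries with no count in the young ones (change -3.82 ± 0.70). Fam167a changed by -4.62 ± 0.89, the chloride channel gene Best1 by -3.74 ± 0.71, the secreted protein gene C1qtnf1 by -3.59 ± 0.75 and the protease gene Adamts7 by -3.52 ± 0.81, each with no count in 2 young luminal libraries and some in all 4 old ones. The fitted value of such a gene depends on the prior count. Adamtsl3, S1pr3, Rmnd1, Lfng, Prkd1 and Antxr1 kept their calls when any single library was left out. With limma on log2(TPM + 1), which understates changes of low genes, Adamtsl3 (0.65, adjusted p = 0.24), S1pr3 (0.76, adjusted p = 0.141) and Prkd1 (0.98, adjusted p = 0.13) were not called, nor were Nek2, Fam167a, Best1 and C1qtnf1 (adjusted p 0.0641 to 0.183). Tsku lost its call without old Trop2-positive library 2 (adjusted p = 0.0754), Best1 without old stromal libraries 1 and 3 and young stromal libraries 1 and 2 (adjusted p 0.0536 to 0.068), and Fam167a without old stromal library 1, young stromal libraries 1 and 2 and young Trop2-negative libraries 1 and 2 (adjusted p 0.0501 to 0.0649). C1qtnf1 lost it without old stromal libraries 1 and 3, young stromal libraries 1, 2 and 3, young Trop2-negative library 2, old Trop2-positive libraries 1 and 2 and young Trop2-positive library 1 (adjusted p 0.0594 to 0.0774). Nek2 lost it without old stromal libraries 1, 2 and 3, young stromal libraries 1, 2 and 3, old Trop2-negative library 1, young Trop2-negative library 1 and old Trop2-positive libraries 1 and 2 (adjusted p 0.0524 to 0.108). Adamts7 lost it without old stromal libraries 1, 2 and 3, young stromal libraries 1, 2 and 3, old Trop2-negative libraries 1 and 2, young Trop2-negative libraries 1 and 2 and old Trop2-positive library 2 (adjusted p 0.053 to 0.202), and with RLE factors (adjusted p = 0.0501).

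**Figure D5:**
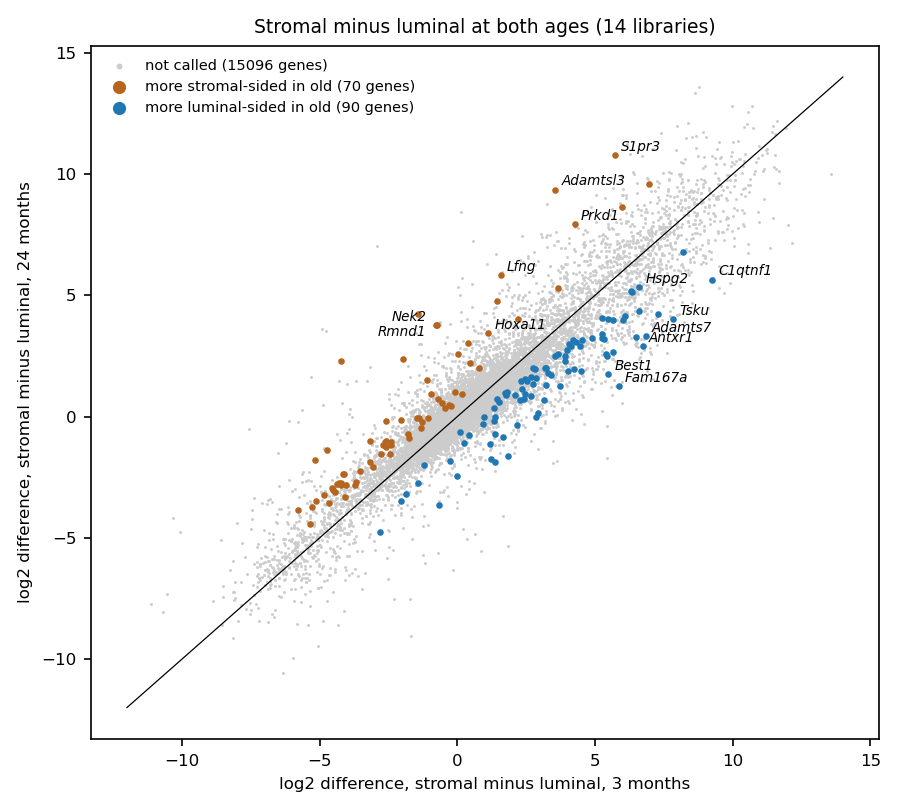
The log2 difference, stromal minus luminal, at 3 months (horizontal) and 24 months (vertical) of 15256 genes in the fit of 14 libraries; brown points are the 70 genes more on the stromal side in old mice, blue the 90 more on the luminal side and grey those not called, and the line marks equality. Most genes lay along the line, and the named genes lay off it by up to 5.8.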

How the data were processed

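Per the labels' protocols, RNA was extracted from frozen pellets of sorted prostate cells and made into stranded libraries of polyadenylated RNA, sequenced on an Illumina HiSeq instrument. Per the submitters' processing notes, the tools were bcl2fastq 2.17, Bowtie2 2.1.0 and RSEM 1.2.15 with the GRCm38 (mm10) build; the annotation and the strand setting of the counting were not given in the sources used here. The deposited tables give, per the file headers, an expected count, which RSEM estimates and which need not be whole, and the authors' TPM for each of 24054 genes. A further, TMM-normalised table named in the labels played no part here.

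Expected counts were rounded, genes were filtered with filterByExpr, scaled by TMM and fitted with edgeR 4.0.16 (R 4.3.3; robust quasi-likelihood F test, 4 residual degrees of freedom), with stromal set against the mean of both luminal sorts. The 2-fold test was edgeR's glmTreat at log2 1, and the change with age was an interaction over 14 libraries. All p-values were adjusted by Benjamini-Hochberg over the genes tested. With 3 libraries against 4, the smallest exact permutation p for a single gene is 0.0571, so none is given. Alternatives were DESeq2 1.42.0, limma 3.58.1 on log2(TPM + 1), other scalings, no filter, each luminal sort alone, 1 fit of all 14 libraries, a replicate block, each library left out, and both luminal libraries of high Svs1 left out together, a choice made from an earlier look at these data. The fits were tested on simulated data. Summaries used Python 3.11.15, numpy 2.4.6, pandas 2.3.3 and matplotlib 3.10.9.

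The compared groups, the 65 gene lists (648 symbols, of which 2, Sts and Trbc2, were unmatched) and the 20 pairs were chosen with earlier results of these data known. Genes named were the 10 largest non-overlapping differences in each direction with at least 50 CPM, up to 4 called members of smallest adjusted p in each direction and up to 2 uncalled members of each list, the pairs, the markers, and for age the 6 largest changes in each direction with at least 5 CPM. A few genes that this rule names are not reported here. The 8 list members named for a change with age, and the genes Bgn, C3, C4b, Cdh1, Cldn1, Cldn4, Col1a2, Col3a1, Col4a1, Col4a5, Col6a3, Cxcl13, Dst, Elf3, Fkbp5, Fn1, Foxa1, Gdf10, Grhl1, Hspa5, Ifit1, Ifit2, Igfbp2, Itgb1, Itgb5, Lamc1, Lox, Loxl1, Mgp, Mmp2, Myocd, Nid2, Pbsn, Ptgs2, Serping1, Snai2, Sparc, Srd5a1, Timp3, Tjp1 and Twist1, lie outside it; they were picked once their values had been seen. Gene positions and promoter windows are those of RefSeq for GRCm38.p6, and shared 50-base windows were counted in GENCODE transcripts.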

Additional observations from a re-analysis of the deposited data

Results flagged for a closer look

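The difference between stromal and luminal cells differed between the ages, by the edgeR interaction test over 14 libraries, for 160 of 15256 genes. The named genes with a difference more on the stromal side in old mice were, as log2 changes, Adamtsl3 at 5.8, S1pr3 at 5.05, Rmnd1 at 4.55, Nek2 at 4.50, Lfng at 4.27, Prkd1 at 3.68, Crabp1 at 3.36, Hoxa11 at 2.30, Cldn1 at 1.2 and Grhl1 at 0.99. Those more on the luminal side were Fam167a at -4.62, Antxr1 at -3.85, Tsku at -3.82, Best1 at -3.74, C1qtnf1 at -3.59, Adamts7 at -3.52, Hspg2 at -1.28, Col4a5 at -1.22, Lamc1 at -1.06 and Itgb5 at -0.90. Of the genes called, 28 had differences of opposite sign at the 2 ages. At an unadjusted p under 0.05 the same test gave 1912 genes.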

How the results depend on the processing

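At 24 months the counts of genes higher and lower in stromal cells moved by less than 1.5 times under every alternative run, from 4875 and 4174 to 4888 and 3745 with DESeq2, 4709 and 4343 with limma on log2(TPM + 1), 4400 and 4830 with library totals, and between 4190 and 5290 and between 3522 and 4182 with 1 library left out. Library totals moved the median log2 difference of all genes tested from 0.06 to -0.08. Of 3815 values of named genes under alternatives, 3324 at 24 months and 313 for the change with age kept direction and side of the threshold, and 6 of 20 changes with age held under all alternatives run for them. Directions turned for Svs1 without both luminal libraries in which it was high (3.56), and for Areg (1.76, adjusted p = 0.0442), Cxcl15 (0.15) and Pdgfa (0.21) against Trop2-negative cells alone, for Pdgfa without Trop2-negative library 2 (0.04), and for Cxcr4 with limma (-0.07), against Trop2-positive cells alone (-1.27), with a replicate block (-0.20) and without stromal library 3 (-0.20); with 1 library left out Cxcr4 ranged from -0.20 to 0.77 and Pdgfa from -0.65 to 0.04. None of these was called in the comparison with both sorts except Cxcl15, and the cause was not tested. The genes whose difference was more on the stromal or luminal side in old mice, 70 and 90, became 201 and 204 with DESeq2, and 407 on the luminal side with limma; the cause was not tested. With 1 library left out they ranged from 28 to 145 and from 35 to 252. Deviations from the group mean correlated at -0.197 to 0.109 for libraries of the same replicate number and at -0.109 to 0.197 for those of different numbers. The value of 0.197 included old Trop2-negative library 1 with old Trop2-positive library 2, the libraries of high Svs1. In a group of 2 libraries the deviations mirror each other, so these values cannot decide which samples were paired. With the number as a replicate block, 4151 genes were higher and 3286 lower at 24 months, and 68 and 69 changed with age.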

Other observations

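Other gene groups were also measured at 24 months, where 33% of all genes tested were called higher and 28.2% lower in stromal cells. Of 22 ribosomal protein genes 16 were not called, 4 were lower and 2 higher in stromal cells (median log2 difference -0.10), and with library totals 9 were lower and none higher; summed, they stood at 8730.7, 8728.8 and 8766.8 CPM in the stromal, 6541.9 and 8712.8 CPM in the Trop2-negative and 12380.6 and 10652.4 CPM in the Trop2-positive libraries. Of 8 genes of polyamine synthesis 3 were higher, 1 lower and 4 not called (median 0.04, or -0.10 with library totals). Cell cycle genes were low, with sums of 230.9 to 260.6 CPM in the stromal and 137.3 to 197.1 CPM in the luminal libraries for 14 genes, and 8 of the 12 tested were not called. Of 15 genes often used as senescence markers, several of which other lists hold, 9 were higher, 7 of them beyond 2-fold, and 1 lower in stromal cells (median 1.12), with sums of 3247.7 to 4521.9 CPM against 201.4 to 520.7 CPM. Of 13 antigen presentation genes 6 were higher, 2 lower and 5 not called, and their sums overlapped, at 2526.6 to 3102.2 CPM in the stromal and 2606.2 to 3808.0 CPM in the luminal libraries.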
